A study of Mus musculus with 2 samples.

Results

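The SoxC, SoxD and SoxE factors are 9 transcription factor genes, taken by symbol from a fixed list: Sox4, Sox11 and Sox12 (SoxC), Sox5, Sox6 and Sox13 (SoxD), and Sox8, Sox9 and Sox10 (SoxE). All 9 were found among the 43346 Ensembl genes of the tables, and they had 33 annotated transcripts. The levels come from total RNA-seq of whole limb tissue of B6NCrl mouse embryos at 13.5 days, with males and females pooled. The study had 2 libraries in 1 group, biological replicates 1 and 2, each made from 10 ng of RNA longer than 200 nt. No condition was compared, so each value stands beside its spread between the 2 libraries and no p-value is given. The libraries are separate samples that share one donor entry in the labels, and whether they came from different litters is not stated there.

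Sox proteins bind DNA through an HMG box, a domain that bends the double helix. SoxE proteins also carry a region that activates transcription. SoxD proteins have none and form dimers through a coiled coil. In cartilage Sox9 starts and maintains the chondrocyte programme, and Sox5 and Sox6 act with it on genes of the cartilage matrix. SoxC factors are known from progenitor cells of mesenchyme and nervous system, where Sox4, Sox11 and Sox12 act in part redundantly. Sox10 is a factor of the neural crest, above all of Schwann cells and melanocytes, and Sox8 is related to both Sox9 and Sox10.

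Replicate 1 held 31927117 and replicate 2 held 43194518 expected counts, which are read numbers estimated by a model. The detection limit was 1 TPM, to be reached in each library. TPM is a level per transcript length, scaled to one total in each library, so that levels of different genes can be set side by side. All 9 factors were detected, as were 61.0% of 21474 protein-coding genes. None of the 9 lay more than 1.5-fold apart between libraries, where 7.40% of 17982 genes averaging 10 counts or more did. That share takes in genes with fewer counts than any member. The largest difference of a member was a log2 ratio of 0.21 (replicate 1 over replicate 2), for Sox5. The SD of this ratio over genes of like count was 0.09. Among genes averaging 100 counts or more the median absolute log2 ratio was 0.08. The markers of limb tissue were present: all 6 limb mesenchyme genes were detected (median 88.8 TPM, from Twist1 at 39.7 to Msx1 at 253), as were 4 of 5 myoblast genes (Pax7 at 0.755) and 4 of 5 osteoblast genes (Ibsp highest at 16.7, Bglap at 0.365).

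Sox9 and Sox11 stood highest, and no order between them could be read. Sox9, the chondrocyte factor, was at 187.53 TPM in replicate 1 and 173.83 TPM in replicate 2 (180.68 ± 9.69, SD, n = 2). Sox11, a SoxC factor of progenitor cells, was at 176.79 and 183.01 TPM (179.9 ± 4.40). Sox9 was the higher in replicate 1 and Sox11 in replicate 2, with log2 ratios of Sox9 over Sox11 of 0.09 and -0.07. They ranked 829 and 837 among the 13100 detected protein-coding genes, whose median was 20.6 TPM. Below them stood Sox5 with 81.10 and 71.06 TPM (76.08 ± 7.10), then Sox4 with 62.85 and 60.82 TPM (61.84 ± 1.44). These levels of Sox5 and Sox4 each rest on how reads were assigned, as given with each gene. Sox6 had 23.24 and 21.63 TPM (22.4 ± 1.14), Sox8 13.15 and 14.48 TPM (13.8 ± 0.940) and Sox12 9.37 and 9.95 TPM (9.66 ± 0.410). Sox10 had 4.63 and 5.14 TPM (4.89 ± 0.361) and Sox13 3.85 and 3.21 TPM (3.53 ± 0.453). The range from the highest to the lowest member thus spanned genes far above and far below the median detected gene.

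Of the 8 steps between neighbours in this order 6 were past the spread. The order came from these same values, so the direction of each mean step was fixed beforehand and only its size was read. A step was called so when its sign was the same in each library and the mean log2 ratio of TPM (with 0.1 added) was above 2 times its error, taken from the 500 genes nearest in counts to each gene. Sox11 exceeded Sox5 by 2.37-fold, Sox5 exceeded Sox4 by 1.23-fold and Sox4 exceeded Sox6 by 2.75-fold. Sox6 exceeded Sox8 by 1.62-fold, Sox8 exceeded Sox12 by 1.42-fold and Sox12 exceeded Sox10 by 1.96-fold. On expected counts, which are not per length, 3 steps had a negative mean log2 ratio, all past the spread. These were -1.06 for Sox5 over Sox4, -0.39 for Sox8 over Sox12 and -1.02 for Sox9 over Sox11. On that measure Sox11 was 10.6-fold above Sox5, Sox6 was 3.64-fold above Sox8 and Sox12 was 3.24-fold above Sox10. On TPM the step from Sox9 to Sox11 was not past the spread. Nor was that from Sox10 to Sox13, with log2 ratios of 0.26 and 0.66, of which the mean of 0.46 lay below 2 times the error (0.51).

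**Figure D1:**
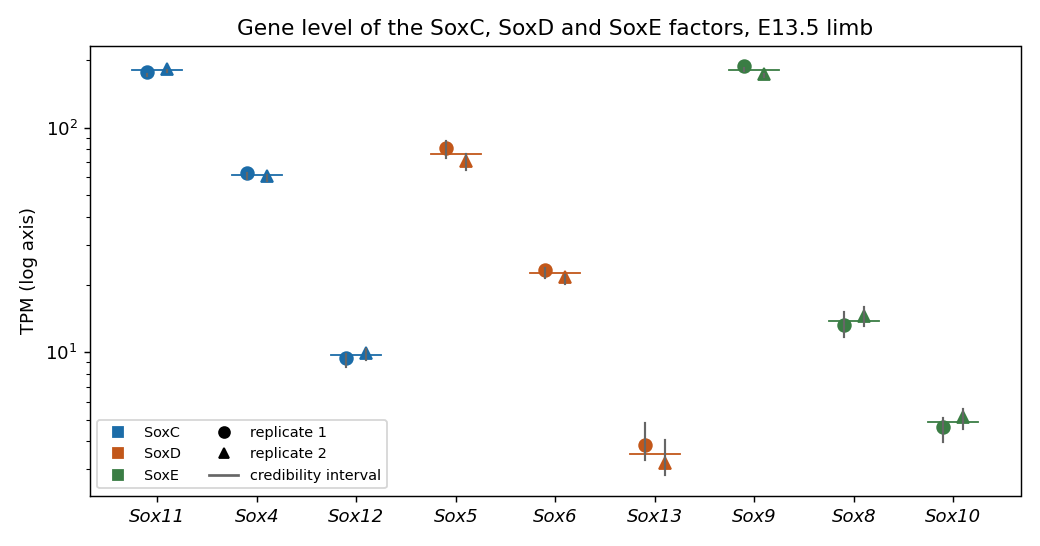
Level of each factor in TPM on a log axis, grouped as SoxC, SoxD and SoxE from left to right, with circles for replicate 1, triangles for replicate 2, coloured lines for the mean and grey bars for the deposited credibility interval. Sox9 and Sox11 share the top at about 180.68 and 179.9 TPM, and each group has 1 member far above its lowest one.

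On gene TPM each group was led by 1 gene. In SoxE, Sox9 made up 91.3% of the summed TPM in replicate 1 and 89.9% in replicate 2. In SoxC, Sox11 made up 71.0% and 72.1%, and in SoxD, Sox5 made up 75.0% and 74.1%. The lead of Sox5 in SoxD turned on the transcripts counted. On those with the HMG box alone Sox6 was the higher, by 1.85-fold and past the spread of whole-gene TPM. On coding transcripts the log2 ratio of Sox5 over Sox6 was 0.08 and not past it. That spread leaves out the error of assigning reads to transcripts. The summed level was 249.01 and 253.78 TPM for SoxC, 108.19 and 95.9 TPM for SoxD and 205.31 and 193.45 TPM for SoxE. Sums are descriptions and were not tested.

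The deposited tables give a credibility interval around a posterior mean of TPM, whose level is not stated in the sources used here. For Sox9 the interval was 179 to 185 TPM in replicate 1 and 168 to 173 TPM in replicate 2. Its TPM lay just above the interval in both libraries, since the interval surrounds the posterior mean (182 and 170 TPM) and not the TPM. For Sox13, the member lowest in mean TPM, the interval was 3.31 to 4.85 TPM and 2.83 to 4.04 TPM, on 204 and 245 counts. The top members rested on many more reads, with 15768 and 19413 counts for Sox9 and 30247 and 41585 for Sox11, and Sox10 on 252 and 372.

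The SoxC genes Sox11 and Sox4 are each a single exon with 1 annotated transcript. Sox11 (ENSMUSG00000063632.6) lies at chr12:27334264-27342574 on the minus strand of mm10 and shares no 100-base string of its transcript with another gene annotated in GENCODE M21. Its level was 2.91-fold above that of Sox4 and 18.4-fold above that of Sox12, both past the spread. On expected counts these ratios were 5.09-fold and 35.7-fold. Sox4 was 6.35-fold above Sox12, also past the spread.

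Sox4 (ENSMUSG00000076431.4) lies at chr13:28948919-28953713 on the minus strand, and the lincRNA gene Gm26735 runs over it on the opposite strand (chr13:28943048-28951671). Of the 4696 strings of 100 bases in the Sox4 transcript, 53.6% also occur in Gm26735 when read on the other strand. Gm26735 was given 2031.76 and 2444.91 counts, and Sox4 was given 6149.24 and 7903.09. Neither count was whole, yet their sums were 8181 and 10348, whole in both libraries, so reads were divided between these genes. Sox4 held 75.2% and 76.4% of the sum. With all of these reads given to Sox4 it would stand at 83.6 and 79.6 TPM in replicates 1 and 2. The step from Sox5 to Sox4 was then a log2 ratio of -0.10 and no longer past the spread. Sox11 was then 2.20-fold and Sox9 2.21-fold above Sox4, which was 8.37-fold above Sox12 and 3.63-fold above Sox6, all past the spread. The use of strand in the counting is not given in the sources used here, so the reads of this pair cannot be told apart. The level of Sox4 is reported as uncertain: giving it all of the reads raises it by a factor of 1.33 and 1.31, and a lower bound was not computed.

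Windows of 300 bases at the annotated starts, from 250 bases before to 50 after, were available from RefSeq (GRCm38.p6) for 7 of the 9 genes, Sox9 and Sox10 being the others. The windows of the 3 SoxC genes are shown because their levels differ 18.4-fold from highest to lowest and their starts differ in base composition. They are on the minus strand, 5′ to 3′, with capitals for matches on either strand to CCAAT or to GGGCGG (the GC box). Sox11 is at chr12:27342669-27342968, Sox4 at chr13:28953650-28953949 and Sox12 at chr2:152397997-152398296.
Sox11: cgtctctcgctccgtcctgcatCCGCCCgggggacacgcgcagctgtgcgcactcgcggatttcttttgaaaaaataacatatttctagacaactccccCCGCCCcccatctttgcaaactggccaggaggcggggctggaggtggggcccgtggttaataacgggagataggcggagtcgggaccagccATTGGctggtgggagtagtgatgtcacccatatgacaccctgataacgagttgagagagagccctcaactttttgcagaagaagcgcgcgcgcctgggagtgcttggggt
Sox4: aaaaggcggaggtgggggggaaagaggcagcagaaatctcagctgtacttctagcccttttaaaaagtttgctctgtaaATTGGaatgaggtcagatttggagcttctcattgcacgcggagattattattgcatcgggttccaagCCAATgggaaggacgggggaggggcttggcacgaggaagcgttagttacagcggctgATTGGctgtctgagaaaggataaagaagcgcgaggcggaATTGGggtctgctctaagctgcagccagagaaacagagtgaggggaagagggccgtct
Sox12: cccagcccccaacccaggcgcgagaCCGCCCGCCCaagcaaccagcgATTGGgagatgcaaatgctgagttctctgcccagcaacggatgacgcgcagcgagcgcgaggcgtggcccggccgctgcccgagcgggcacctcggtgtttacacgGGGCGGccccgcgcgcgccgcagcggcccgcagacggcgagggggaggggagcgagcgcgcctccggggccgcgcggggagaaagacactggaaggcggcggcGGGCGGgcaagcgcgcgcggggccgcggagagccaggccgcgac
The Sox12 window had 76.7% GC and 47 CpG dinucleotides, the Sox11 window 58.7% and 21, and the Sox4 window 52.0% and 12, where the median of 32851 such windows was 52.7% and 7. Sox4 held CCAAT 4 times and no GC box, Sox11 held CCAAT once and the GC box 2 times, and Sox12 held CCAAT once and the GC box 4 times. Among all windows 37.4% held CCAAT and 35.7% the GC box. None of these 3 windows held TATAAA (13.6% of all windows) or AACAAT, a core that Sox proteins are known to bind (10.7%). No 2 different motifs overlapped in these windows. The matches are descriptions of letters and not binding sites, and the gene with the lowest level had the most GC-rich start.

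Sox12 (ENSMUSG00000051817.8, chr2:152393611-152398063, minus strand) has 2 annotated transcripts with the same 942-nt coding sequence. The unspliced Sox12-202 held 89.34% of its TPM in replicate 1 and 58.10% in replicate 2. The 2-exon Sox12-201 held 10.66% and 41.90%. The split moved by 31.2 percentage points between the libraries, while the gene level barely did. Of 8686 detected protein-coding genes with 2 or more transcripts and an average of 100 counts or more, 1.82% had a transcript that moved by 30 points or more, and of the 5 members with several transcripts Sox12 was the one that did. Sox12-201 was estimated at 84.72 and 469.51 counts, with intervals of 0.215 to 2.61 TPM and 2.44 to 5.56 TPM, so the choice between its transcripts is not settled by these libraries.

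The SoxD genes had the most varied transcripts, and Sox5 stood apart. Sox5 (ENSMUSG00000041540.12) spans chr6:143828425-144781977 on the minus strand and has 14 annotated transcripts, 7 with coding sequence and 7 without. Transcripts without coding sequence, retained introns and processed transcripts, held 69.0% of its TPM in replicate 1 and 68.5% in replicate 2, but only 35.2% and 31.7% of its counts. Coding transcripts made up less than 50% of TPM in both libraries in 6.91% of the same 8686 genes, and among the 5 members with several transcripts in Sox5 alone.

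The highest Sox5 transcript by TPM was Sox5-208, a processed transcript of 351 nt, with 22.20 and 21.94 TPM, or 27.38% and 30.87% of the gene, on 116.57 and 152.95 counts. Sox5-213, a retained intron of 633 nt, held 20.31% and 19.52%. Sox5-211, a coding fragment of 669 nt whose annotated coding sequence is incomplete, held 14.76% and 13.72%. These 3 transcripts shorter than 700 nt held 62.5% and 64.1% of the TPM of Sox5 on 14.3% and 14.2% of its counts. The full-length Sox5-201, of 7243 nt and 15 exons, held 10.12% and 11.35% of TPM on 1221.13 and 1594.73 counts, which was 39.5% and 44.4% of the gene's counts and its largest share. Sox5-207, a retained intron of 2470 nt, held 10.72% and 8.46%.

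**Figure D2:**
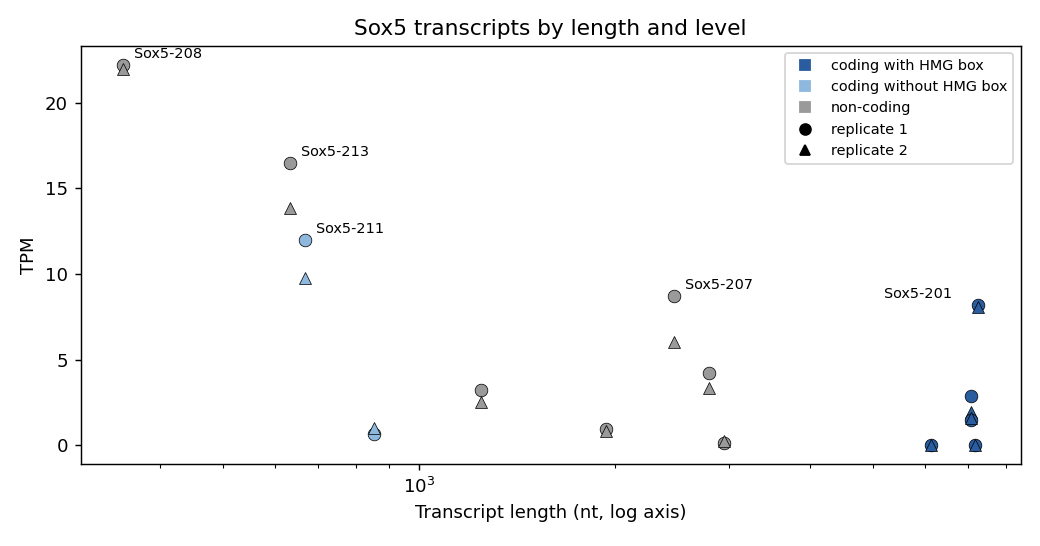
TPM of each of the 14 Sox5 transcripts against its length in nt on a log axis, with circles for replicate 1 and triangles for replicate 2. Transcripts without coding sequence are grey, and the 3 shortest labelled ones, Sox5-208, Sox5-213 and Sox5-211, stand above the full-length Sox5-201 in both libraries.

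The HMG box could be looked for in the coding sequence by a short run of residues that opens it. The run was present in 21 of the 24 coding transcripts of the 9 genes and absent from Sox5-206, Sox5-211 and Sox8-203, whose annotated coding sequences are incomplete. Sox5 transcripts with it summed to 12.53 TPM in replicate 1 and 11.63 TPM in replicate 2, which was 15.5% and 16.4% of the gene's TPM but 59.8% and 63.5% of its counts. Sox5-204, the short coding form with the HMG box, was estimated at 0 counts in both libraries, with upper bounds of 0.194 and 0.129 TPM.

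The order of Sox5 and its partner Sox6 turned on this. On gene TPM, Sox5 was 3.38-fold above Sox6 (log2 ratios of 1.80 and 1.71). On coding transcripts alone the mean log2 ratio was 0.08 and not past the spread. On transcripts with the HMG box it was -0.89, past the spread, with Sox6 the higher by 1.85-fold. The spread on both of these measures was that of whole-gene TPM and left out the error of assigning reads to transcripts. The interval of Sox5-201 was 4.55 to 9.89 TPM in replicate 1 and 5.36 to 8.67 TPM in replicate 2. On expected counts, which are not per length, Sox5 was 1.21-fold above Sox6. The measures on coding and on HMG-box transcripts were added after the values were seen, and which measure best stands for the protein was not tested.

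**Figure D3:**
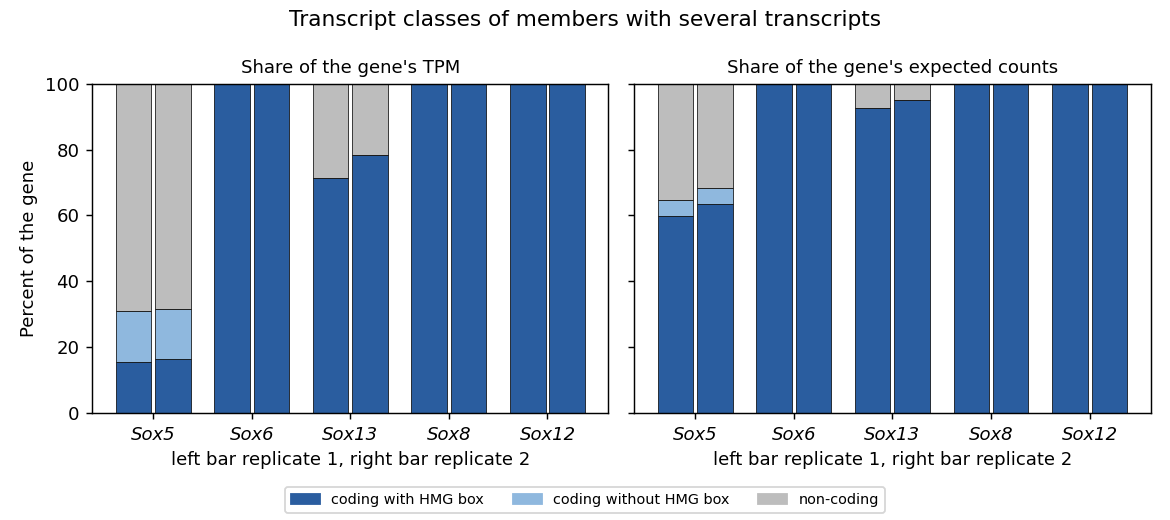
Share of each gene's TPM (left) and of its expected counts (right) by transcript class, for the 5 members with several transcripts, with replicate 1 left of replicate 2 in each pair of bars. Sox5 is the gene in which transcripts without coding sequence take most of the TPM, 69.0% and 68.5%, but not most of the counts.

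Sox6 (ENSMUSG00000051910.9, chr7:115470872-116038796, minus strand) has 5 annotated transcripts, each coding, each with the HMG box and each with a start of its own. Sox6-203, of 2825 nt, held 49.90% and 50.99% of TPM, and Sox6-204, of 8079 nt, held 32.18% and 35.69%. By counts the order was turned round, with 50.3% and 55.4% for Sox6-204 and 26.7% and 27.0% for Sox6-203. Over both libraries together, the top transcript by TPM was not the top by counts in 12.0% of the 8686 genes. The same held in 3 of the 5 members, Sox5, Sox6 and Sox13. For Sox13 it held in neither library alone: Sox13-203 led on both measures in replicate 1 and Sox13-205 in replicate 2. The remaining Sox6 transcripts held at most 8.93% of TPM each. Both leading starts lie far apart, and their windows are shown since together they carried most of Sox6.
Sox6-204: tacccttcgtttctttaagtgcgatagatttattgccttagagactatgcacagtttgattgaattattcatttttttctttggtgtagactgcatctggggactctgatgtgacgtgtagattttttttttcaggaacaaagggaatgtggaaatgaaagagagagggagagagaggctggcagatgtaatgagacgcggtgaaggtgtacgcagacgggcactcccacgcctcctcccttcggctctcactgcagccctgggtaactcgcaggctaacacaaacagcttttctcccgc
Sox6-203: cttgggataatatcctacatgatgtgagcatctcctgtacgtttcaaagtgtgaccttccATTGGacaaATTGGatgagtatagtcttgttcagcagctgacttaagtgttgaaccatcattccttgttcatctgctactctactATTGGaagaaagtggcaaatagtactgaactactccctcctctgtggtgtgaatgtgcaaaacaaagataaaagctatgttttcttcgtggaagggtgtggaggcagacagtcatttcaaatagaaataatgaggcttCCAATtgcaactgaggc
The first window is chr7:116038695-116038994 and the second chr7:115846091-115846390, both on the minus strand of GRCm38.p6, with CCAAT on either strand in capitals. The window of Sox6-204 had 47.0% GC and none of the 4 motifs searched. The window of Sox6-203 had 41.0% GC, 2 CpG dinucleotides and CCAAT 4 times.

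The Sox5 transcripts fell into 4 clusters of start sites. The cluster at 144209452 to 144209568 held 6 transcripts, Sox5-201 among them, and 66.0% and 69.7% of the counts. That at 144204057 to 144204427 held Sox5-207 and Sox5-208 and 17.7% and 15.2% of the counts, and that at 144781919 to 144781977 held 8.86% and 8.03%. The cluster at 143947088 to 143947106, where the short coding form starts, held 7.44% and 7.08% of the counts but 19.6% and 18.7% of TPM, most of it Sox5-211. The one Sox5 window in the RefSeq table, chr6:143947057-143947356 on the minus strand, lies at this last start and is shown because it is the start of the form listed at 0.
Sox5-204: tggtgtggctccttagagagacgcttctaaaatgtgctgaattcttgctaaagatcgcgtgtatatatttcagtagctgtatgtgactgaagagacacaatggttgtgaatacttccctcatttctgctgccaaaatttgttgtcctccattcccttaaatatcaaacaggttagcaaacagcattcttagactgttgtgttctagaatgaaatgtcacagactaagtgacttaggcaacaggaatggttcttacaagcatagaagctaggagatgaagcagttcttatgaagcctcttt
It had 39.7% GC and 3 CpG dinucleotides, the fewest GC bases among the windows shown, and none of the 4 motifs.

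Sox13 (ENSMUSG00000070643.7, chr1:133382303-133424377, minus strand), a SoxD factor known in mouse from T cells, had the lowest mean TPM. The step to it from Sox10 was not past the spread. Sox5 was 21.02-fold and Sox6 6.23-fold above it, both past the spread. Both sizes turned on the measure: Sox5 was 8.72-fold above Sox13 on coding transcripts and 4.45-fold on those with the HMG box, and Sox6 was 12.3-fold above it on expected counts. Its TPM was split between Sox13-203 (40.57% and 37.69%), Sox13-205 (30.80% and 40.68%) and the retained intron Sox13-204 (28.63% and 16.39%), which rested on 15.10 and 9.58 counts.

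Sox9 (ENSMUSG00000000567.5, chr11:112782224-112787760, plus strand) has 1 annotated transcript of 4135 nt and shared no 100-base string with another gene, so its level did not turn on a division of reads between annotated transcripts. It was 2.38-fold above Sox5 and 8.02-fold above Sox6, its partners on cartilage genes, and 2.92-fold above Sox4. Within SoxE it was 13.0-fold above Sox8 and 36.3-fold above Sox10. All 5 ratios were past the spread. On expected counts Sox9 was 5.25-fold above Sox5, 23.1-fold above Sox8 and 57.1-fold above Sox10. On transcripts with the HMG box alone, the ratio of Sox9 over Sox5 was 14.8-fold and that of Sox9 over Sox6 hardly differed, as the plot of pair ratios shows.

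**Figure D4:**
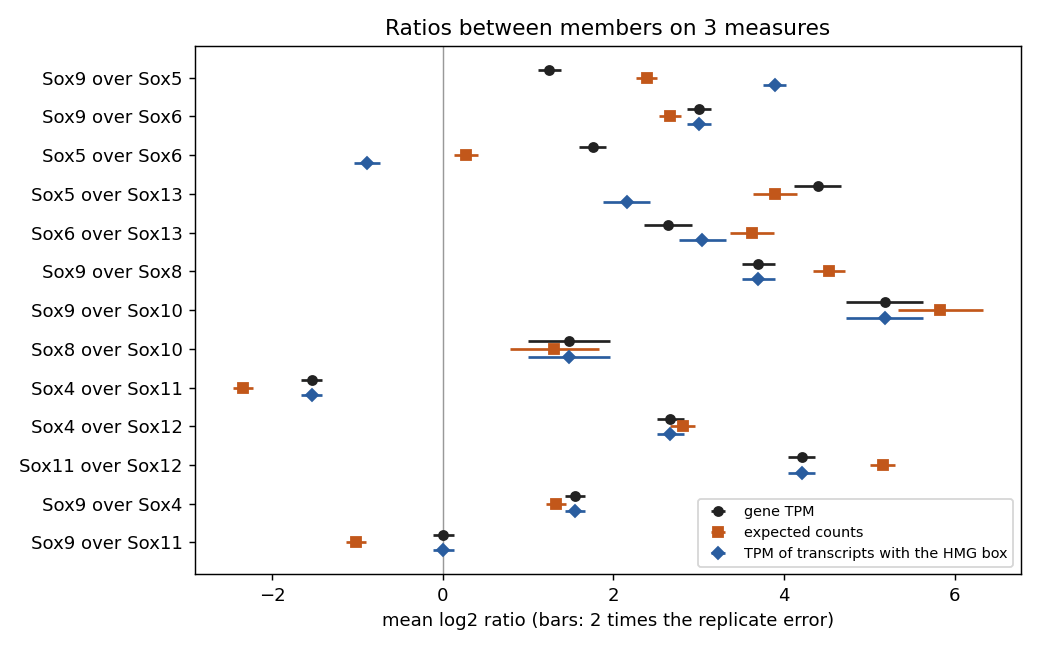
Mean log2 ratio of 13 member pairs over both libraries on 3 measures. These are gene TPM (circles), expected counts (squares) and TPM of transcripts with the HMG box (diamonds). Bars are 2 times the error taken from genes of like abundance, and for transcripts with the HMG box they are those of whole-gene TPM. Pairs with Sox5 move most between measures, and Sox5 over Sox6 lies right of 0 on gene TPM (mean fold 3.38) and left of it on transcripts with the HMG box.

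Most genes on which Sox9, Sox5 and Sox6 act in cartilage were present, many of them at high levels. Of 16 genes of cartilage matrix and chondrocytes 15 were detected, where 61.0% of protein-coding genes were, and the median was 93.2 TPM. Col2a1, the main cartilage collagen, had 595.28 TPM in replicate 1 and 699.31 TPM in replicate 2. Col9a3 averaged 369 TPM, Col9a1 200.1 TPM and Matn4 163 TPM. Acan, at 20.1 TPM, lay below the median of detected protein-coding genes (20.6 TPM). Ucma was lowest and below the detection limit at 0.415 TPM. Comp was the list's largest difference between libraries, with 19.34 TPM in replicate 1 and 30.14 TPM in replicate 2, while Sox9 was the higher in replicate 1. In bulk tissue, fewer cells of a type and less RNA per cell cannot be told apart, and which cells held each factor was not measured.

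Sox8 (ENSMUSG00000024176.6, chr17:25565892-25570686, minus strand) and Sox10 (ENSMUSG00000033006.9, chr15:79154908-79165240, minus strand) were minor SoxE genes, Sox8 being 2.79-fold above Sox10 and past the spread. Sox8-201 held 67.43% and 73.48% of Sox8 TPM and Sox8-202 the rest. The antisense gene 2810468N07Rik overlaps Sox8 and had 199 and 255 counts (7.64 and 7.37 TPM) against 610 and 942 counts for Sox8. These share 7.39% of the strings of Sox8, and all 4 counts were whole. Of the genes that overlap Sox5 and Sox6 in the tables, Sox5os1, Sox5os2, Sox5os3, Sox5os4, Sox5os5, Sox5it and Sox6os, none had more than 6 counts. Sox5os1, which shares 8.40% of the strings of Sox5, had 0 in both libraries.

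Genes of cells that use Sox10 were present at low levels. Of all protein-coding genes 61.0% were detected, so a count of detected genes does not by itself show that a cell type was present. Of 10 Schwann cell precursor genes 8 were detected (median 5.52 TPM), led by Ngfr (24.41 and 28.70 TPM), Erbb3 (12.01 and 14.60), Gfra3 (11.03 and 10.19) and Fabp7 (8.92 and 7.72), with Foxd3 lowest at 0.67 and 0.62. Of 6 melanoblast genes 3 were detected, led by Kit (8.11 TPM) and followed by Pmel (1.77), Mitf (1.52) and Dct (1.11, below 1 TPM in replicate 2), with Tyrp1 lowest at 0.195 TPM. Of 4 genes listed for oligodendrocytes, a cell type that limb lacks, Cnp alone was detected (26.9 TPM), and which cells held it was not measured. Mog stood at 0.165, Olig1 at 0.130 and Olig2 at 1 count in replicate 1 and 0 counts in replicate 2. None of 4 genes of the male gonad, a site of Sox8 and Sox9, was detected, with Dhh highest at 0.835 TPM and Dmrt1, Nr5a1 and Amh at or under 0.115. Sox10 at 4.89 TPM thus stood in the range of the Schwann cell precursor genes.

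Genes known as targets of SoxC factors were detected in 4 of 4 cases, where 61.0% of protein-coding genes were detected. Tead2, a factor of the Hippo pathway, had 215.41 TPM in replicate 1 and 219.38 TPM in replicate 2. Gdf5, a signal of forming joints, had 88.84 and 84.05 TPM. The neuronal genes Dcx (7.70 and 9.37) and Tubb3 (7.81 and 5.74) were lower. All 5 neuron markers were detected at a median of 9.00 TPM, from Elavl4 at 2.59 to Stmn2 at 11.6. The neuronal genes were thus more than 10-fold below Sox11 itself, and Tead2 was in its range.

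Of 10 partners and regulators of the 9 factors 9 were detected, with a median of 42.4 TPM, where 61.0% of protein-coding genes were detected. The corepressor Trim28 had 277.00 and 266.42 TPM, the ubiquitin ligase Wwp2 132.71 and 121.82 TPM, and Nfib 98.61 and 100.64 TPM. Wwp2 is also on the list of cartilage genes, as it is a target of Sox9. Mir140, whose host gene is Wwp2, was listed at 0 counts in both libraries, which were made from RNA longer than 200 nt.

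The 9 factors made up 93.1% and 93.2% of the summed TPM of the 20 Sox genes measured. Of the other 11, the endothelial Sox18 had 24.93 TPM in replicate 1 and 23.71 TPM in replicate 2, Sox7 8.64 and 8.73 TPM, and Sox17 7.13 and 5.59 TPM, all of the SoxF group. The remaining 8 were below the detection limit: Sox15 at 0.520 TPM, Sox2 at 0.295, Sox30 at 0.215, Sox21 at 0.125, Sox14 at 0.105, Sox3 at 0.010, and Sry and Sox1 with 0 counts. A count of 0 allows up to 3 counts, or 0.0940 CPM in replicate 1 and 0.0695 in replicate 2, for counting error only. Sox18 lay near Sox6, a pair that was not set against the spread, and the SoxB genes Sox1, Sox2, Sox3, Sox14 and Sox21 were at or under 0.295 TPM in the mean.

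**Figure D5:**
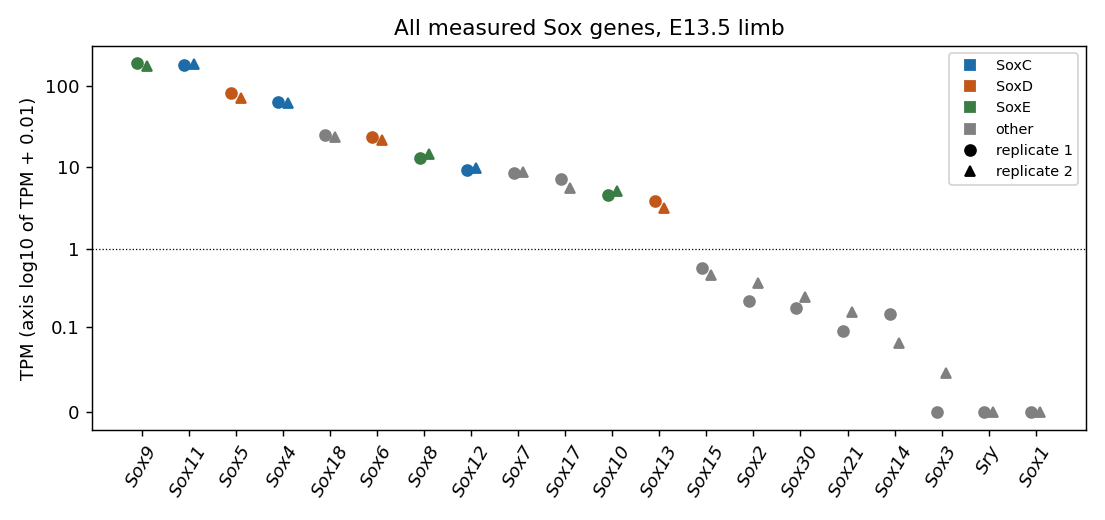
TPM of the 20 measured Sox genes in order of mean level, with circles for replicate 1, triangles for replicate 2 and a dotted line at the detection limit of 1 TPM. The axis is the log10 of TPM + 0.01, so that values of 0 can be drawn. The 9 SoxC, SoxD and SoxE genes are coloured and all lie above the line, with Sox18, Sox7 and Sox17 the 3 other genes above it.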

How the data were processed

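Total RNA-seq of 2 libraries of E13.5 mouse limb, replicates 1 and 2 of 1 group, was analysed from gene and transcript tables. Per the labels, reads were placed on mm10. GENCODE M4 was the annotation, as stated in text deposited beside the tables. Aligner, quantifier and strand use were not given in the sources used here. The expected counts deposited by the authors are model-based read numbers per gene and transcript. The TPM deposited by the authors scale these by effective length (length minus 99 nt for these genes) to a common total, and per the file headers the deposited FPKM do so by library size and kilobase. IsoPct, as deposited, is the percent of gene TPM that a transcript holds, per the file headers.

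Symbols matched 42462 of 43346 Ensembl genes. Positions, biotypes and coding sequences came from GENCODE M21, a later release on the same assembly. Identifiers were matched without versions, and 28 of 33 member transcripts had the same length in both releases. The exceptions were Sox5-202, Sox5-204, Sox5-205, Sox5-206 and Sox6-205, whose coding class is that of M21. Rows that name no gene (0.000226% of counts in replicate 1 and 0.000148% in replicate 2) were left out.

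Rounded expected counts were scaled by TMM in edgeR 4.0.16 (R 4.3.3), and DESeq2 1.42.0 gave alternative size factors. No test of either was run, since there was 1 group. Log2 ratios between libraries used scaled counts with 0.5 added, and ratios between genes used TPM with 0.1 added. The spread of a gene was the SD of library log2 ratios over the 500 genes nearest in mean count, divided by the square root of 2. For ratios between genes, these library ratios were taken on the measure compared, such as TPM. Ratios on coding or HMG-box transcripts used the spread of whole-gene TPM. Python 3.11.15, numpy 2.4.6 and pandas 2.3.3 were used, and the pair rule was tested on simulated data. Promoter windows were from RefSeq (GRCm38.p6).

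The members, gene lists and pairs were chosen with earlier results of these data known. The rule for named genes took all members, transcripts with at least 10% of a gene's TPM in a library, all other Sox genes and overlapping genes, and allowed the 4 highest and the lowest genes of each other list. Of the limb mesenchyme, myoblast, osteoblast and neuron lists only 1 or 2 of the allowed genes are named, and one further gene that the rule allows is not reported here. Comp, Acan and the further genes of the melanoblast, oligodendrocyte and gonad lists were named after their values were seen. With 2 libraries no likeness of pattern between genes could be measured.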

Additional observations from a re-analysis of the deposited data

How the results depend on the processing

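Of 363 alternative values for 53 results, 336 kept their direction and side of the threshold or stayed within the replicate spread. Some of these could not change, so the tally is not a measure of robustness. Sox9 over Sox11, for one, stayed at a log2 ratio of 0.0054 on coding transcripts, since each gene has 1 transcript. All 9 members were detected at 2 TPM, on posterior means and on lower credibility bounds. Their detection at 0.5 TPM and in each library alone followed from the main rule and could not fail. None was over 1.5-fold apart under any scaling tried. Size factors from DESeq2 shifted all library ratios by -0.0002 on the log2 scale, and scaling by spike-in total shifted them by -0.03.

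Dropping the division by length changed the sign of the mean log2 ratio in 3 pairs, of which Sox9 over Sox11 was not past the spread on TPM. On expected counts the log2 ratio of Sox5 over Sox4 was -1.06, of Sox8 over Sox12 -0.39 and of Sox9 over Sox11 -1.02. The summed groups gave -1.23 for SoxE over SoxC, 2.78 for SoxC over SoxD and 1.56 for SoxE over SoxD, against -0.34, 1.30 and 0.97 on TPM. The next 3 alternatives were chosen after seeing the data. On coding transcripts alone Sox5 over Sox4 was -1.38, Sox5 over Sox6 0.08, SoxC over SoxD 2.37 and SoxE over SoxD 2.03. On transcripts with the HMG box alone Sox5 over Sox4 was -2.35, Sox5 over Sox6 -0.89, SoxC over SoxD 2.76 and SoxE over SoxD 2.42. With the reads of Gm26735 given to Sox4, Sox5 over Sox4 was -0.10 and SoxE over SoxC -0.44. Beyond the division by length and the choice of transcripts or reads, the cause of these changes was not tested.

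Sox10 over Sox13 was past the spread in 4 alternatives (0.38 with 1 TPM added, 0.35 on posterior means, 0.87 on coding transcripts and on those with the HMG box). The share of the top transcript moved for Sox5, Sox6, Sox13 and Sox8 when taken from counts, also chosen after seeing the data, and for Sox13 on posterior means. At 2 TPM 1 of 6 melanoblast genes was detected, and at 0.5 TPM 1 of 4 gonad genes. Between 5 and 7 of 8 neighbouring pairs and between 11 and 13 of 13 fixed pairs were past the spread. No paired analysis was possible because there is 1 group. Sox13 and Sox10 rest on the fewest reads of the members, 204 and 245 and 252 and 372 counts. Whether depth or the assignment of reads to transcripts sets the split of Sox12 and Sox13 was not tested.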
